A study of Homo sapiens with 4 samples.

Results

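Cytochrome P450 genes of families 1 to 3, with their reductase and the receptors that control them, were followed through SCD knockdown in human liver cancer lines. The set was drawn up by gene symbol, with no threshold on measured values, but earlier results of these data were known when it was chosen. It held 22 P450 genes (3 of family 1, 15 of family 2 and 4 of family 3) and the reductase gene POR. The receptor genes and partners were AHR, AHRR, ARNT, NR1I2, NR1I3 and RXRA, making 29 genes among 25343 listed. All 29 symbols were found in the deposited tables. There were 4 libraries of total RNA, 1 per group: Huh7 with a non-target lentiviral hairpin (control), Huh7 with a lentiviral hairpin against SCD1 (knockdown), and the same pair in PLC/PRF/5. Both lines come from hepatocellular carcinoma and were grown in high-glucose DMEM with fetal bovine serum. Control and knockdown cells alike carried a stable lentiviral insert and were selected with puromycin. The knockdown rests on 1 hairpin, and the samples are bulk cultures of stably transduced cells. The study asked which genes differ on depletion of SCD, which desaturates stearoyl-CoA.

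Enzymes of these families are haem proteins of the endoplasmic reticulum that insert oxygen into drugs, pollutants, steroids and fatty acids, which makes most of them more soluble or, for some procarcinogens, more reactive. Each draws its electrons from NADPH through the reductase encoded by POR. Dedicated receptors set their transcription: the aryl hydrocarbon receptor (AHR) with its partner ARNT switches on the family 1 genes and its own repressor AHRR, while the pregnane X receptor (PXR, gene NR1I2) and the constitutive androstane receptor (CAR, gene NR1I3) pair with RXRA and act on CYP2B6, CYP2C and CYP3A genes. Adult hepatocytes hold most of the body's capacity, and cultured hepatoma cells are known to keep little of it.

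The proximal promoters of 5 of the genes the results turn on are shown because these genes differ in level and response although several are close relatives. Each line is the 250 bases before the RefSeq start on GRCh38.p14, written 5′ to 3′ on the gene's strand. Capitals mark GCGTG, the core of the dioxin response element bound by AHR and ARNT, and TATAAA, the TATA box, each searched on both strands. The windows are chr15:74725529-74725778 (minus strand) for CYP1A1, chr19:40991032-40991281 (plus) for CYP2B6, chr19:41192969-41193218 (plus) for CYP2S1, chr7:99679997-99680246 (minus) for CYP3A5 and chr7:99735197-99735446 (minus) for CYP3A7.
CYP1A1: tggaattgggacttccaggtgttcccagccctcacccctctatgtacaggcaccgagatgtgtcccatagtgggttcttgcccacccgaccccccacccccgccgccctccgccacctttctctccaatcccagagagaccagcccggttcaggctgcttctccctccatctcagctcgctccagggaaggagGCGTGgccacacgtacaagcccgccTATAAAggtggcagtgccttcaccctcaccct
CYP2B6: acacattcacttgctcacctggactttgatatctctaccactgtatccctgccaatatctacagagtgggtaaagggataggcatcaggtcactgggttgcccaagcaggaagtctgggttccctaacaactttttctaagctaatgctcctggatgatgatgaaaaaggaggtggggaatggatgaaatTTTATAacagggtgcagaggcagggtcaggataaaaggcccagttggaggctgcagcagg
CYP2S1: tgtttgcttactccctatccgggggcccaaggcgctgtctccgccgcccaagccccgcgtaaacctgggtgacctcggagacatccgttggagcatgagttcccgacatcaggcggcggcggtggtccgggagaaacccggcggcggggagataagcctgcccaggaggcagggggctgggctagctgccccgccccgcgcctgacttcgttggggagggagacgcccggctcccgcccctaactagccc
CYP3A5: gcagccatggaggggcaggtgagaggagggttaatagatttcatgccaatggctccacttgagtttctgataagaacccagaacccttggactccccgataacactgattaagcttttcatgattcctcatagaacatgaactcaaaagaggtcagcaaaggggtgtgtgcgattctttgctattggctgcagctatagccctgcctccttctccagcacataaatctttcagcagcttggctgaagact
CYP3A7: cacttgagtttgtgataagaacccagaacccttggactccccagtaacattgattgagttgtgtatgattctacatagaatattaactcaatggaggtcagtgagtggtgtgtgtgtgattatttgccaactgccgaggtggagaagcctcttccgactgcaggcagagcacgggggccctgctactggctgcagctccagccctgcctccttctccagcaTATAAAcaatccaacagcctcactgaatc

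The CYP1A1 window held 1 GCGTG, starting 57 bases before the start, and a TATAAA 32 bases before it. In CYP3A7 a TATAAA stood 29 bases before the start, and the CYP2B6 match, 60 bases before the start, lay on the opposite strand. Neither sequence was found in the windows of CYP3A5 and CYP2S1. Over the genome GCGTG occurred in 31.9% of 27305 such windows and TATAAA in 11.1%. Of the 29 genes, 24 had an entry; CYP1B1, CYP2C18, CYP2D6, CYP2F1 and POR did not. Among the 24, GCGTG was in 5 windows (CYP1A1, CYP2A7, CYP2J2, CYP2W1 and AHRR) and TATAAA in 11, all of P450 genes. The P450 windows were of contrasting kinds. The 11 with TATAAA had a median GC content of 50.4%. In 4 others (CYP2J2, CYP2R1, CYP2S1 and CYP2U1) the GC box GGGCGG was present without TATAAA, and their GC content was 63.2% to 70.4%, against a median of 58.0% over all windows. The windows of CYP2W1, CYP3A5 and CYP3A43 held neither the TATA box nor the GC box. GGGCGG was found in 42.3% of all windows. These are matches of letters and not shown to be bound sites. The CYP3A7 window was 94.0% identical to that of CYP3A4. Aligned with that of CYP3A5, 159 of 307 columns were identical (51.8%), where columns with a gap count as differences. The windows of CYP3A5 and CYP3A7 share long stretches at shifted positions, so this percentage understates how alike the paired bases are.

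In the Huh7 and PLC/PRF/5 control libraries SCD stood at 1755 and 1111 TPM (transcript abundance scaled for length and to a common library total), and in the knockdown libraries at 137 and 178 TPM. Between 17405 and 17931 symbols were above 0 in a library. TPM carries no sequencing depth, so the depth behind each value is unknown. All 9 hepatocyte lineage markers checked were at 1 TPM or more in both Huh7 libraries and 8 in both PLC/PRF/5 libraries, where TTR was under 1 TPM, and their summed level was 32220 TPM in control and 29275 TPM in knockdown Huh7 cells, and 3693 TPM in control and 2076 TPM in knockdown PLC/PRF/5 cells. In PLC/PRF/5 all 8 markers considered were lower in the knockdown library, 4 of them at least 2-fold (median log2 fold change -0.99), and in Huh7 6 of 9 were lower and 0 at least 2-fold (median -0.26). Of all genes considered, 1.11% were at least 2-fold lower in PLC/PRF/5 (median 0.10) and 1.54% in Huh7 (median 0.08). Endothelial markers summed to at most 3.40 TPM, with KDR at 0 throughout. Of 5 blood markers, 2 reached 1 TPM: LYZ made nearly all of their 1019 to 2613 TPM, and CD68 stood at 8.76 to 27.0 TPM, while HBB was listed at 0. Markers of fibroblasts and stellate cells summed to 24.9 TPM in control and 68.0 TPM in knockdown Huh7 cells, where LUM was at 10.8 and 60.0 TPM, and to 3.47 and 2.49 TPM in PLC/PRF/5. Whether these markers bear on the P450 values was not tested. In bulk RNA, fewer cells that express a gene and less RNA per cell cannot be told apart.

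Of the 29 genes, 19 reached 1 TPM in at least 1 library (57.1% of all listed genes did), 6 stayed above 0 but under that level, and 4 were listed at 0 in all 4 libraries. The 4 at 0 were CYP2A6, which oxidises nicotine, its relatives CYP2A7 and CYP2A13, and CYP2F1. The 6 low genes did not exceed 0.67 TPM: CYP1A2, CYP2D6, CYP2W1, CYP3A4, CYP3A43 and NR1I3. Among them are CYP3A4, CYP1A2 and CYP2D6, which in adult liver carry much of drug oxidation. CYP3A4 had at most 0.18 TPM, and CAR (NR1I3) at most 0.06 TPM in any library.

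**Figure D1:**
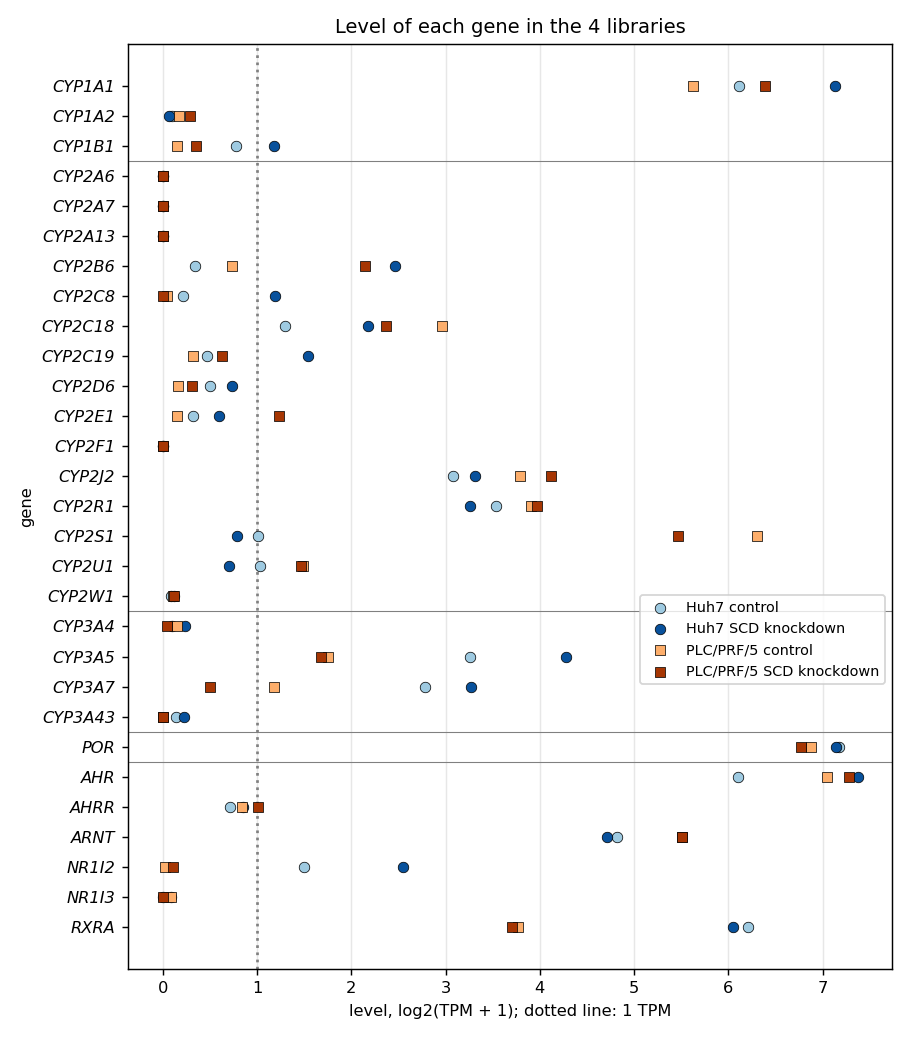
Level of each of the 29 genes on a log2(TPM + 1) axis, 1 point per library; horizontal lines separate the 3 P450 families, the reductase and the receptors. CYP1A1, POR and AHR are high in all 4 libraries, CYP2S1 is high in PLC/PRF/5, and 10 genes lie left of the 1 TPM line in every library.

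Summed over the 22 P450 genes, the level was 107 TPM in the Huh7 control, 199 TPM in the Huh7 knockdown, 167 TPM in the PLC/PRF/5 control and 172 TPM in the PLC/PRF/5 knockdown. CYP1A1 made up 63.9% of it in the Huh7 control and 69.8% in the Huh7 knockdown. Without CYP1A1 the sum was 38.5 and 60.1 TPM in Huh7. In PLC/PRF/5 the leading gene differed between the arms. CYP2S1 held 46.7% of the P450 sum in the control and 25.2% in the knockdown, while CYP1A1 held 29.0% and 48.1%. The near-equal sums of the PLC/PRF/5 libraries thus cover opposite differences in 2 genes.

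**Figure D2:**
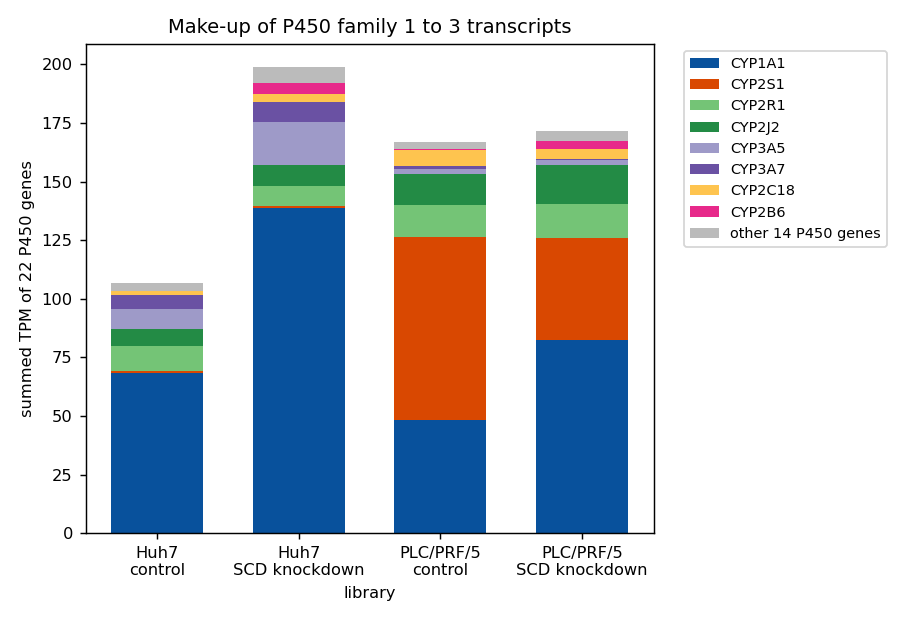
Stacked TPM of the 22 P450 genes in each library, with 8 genes coloured and the other 14 in grey. The Huh7 sum is 107 TPM without and 199 TPM with knockdown, and in PLC/PRF/5 the CYP2S1 share is 46.7% in the control and 25.2% in the knockdown.

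In Huh7 the knockdown library had higher levels of AHR, PXR and several P450 genes, and in PLC/PRF/5 fewer differed. Whether the receptor and P450 differences are linked was not tested. Each arm of a line is a single library, so these differences have no replicate check. Log2 fold changes were taken of TPM + 1, which makes changes of low genes look smaller, and a gene was considered in a line when 1 of its libraries reached 1 TPM. By the size rule of at least 2-fold, 6 of 17 genes considered in Huh7 were higher (3.1% of all genes considered) and 0 lower (1.54% of all). These were CYP1A1, CYP2B6, CYP2C19, CYP3A5, AHR and NR1I2. In PLC/PRF/5, 2 of 15 were at least 2-fold higher (1.72% of all), CYP2B6 and CYP2E1, and 0 were lower (1.11% of all). In PLC/PRF/5 CYP2B6, CYP2E1 and AHRR reached 1 TPM only in the knockdown library, as did CYP1B1, CYP2B6, CYP2C8 and CYP2C19 in Huh7. CYP3A7 in PLC/PRF/5 and CYP2S1 and CYP2U1 in Huh7 reached it only in the control. For these genes the direction was set by the library through which they were considered. CYP2B6 was the 1 gene at least 2-fold higher in both lines, out of 13 considered in both, against 0.431% of all genes. Over the described genes the log2 fold changes had a median of 0.49 in Huh7, beside 0.08 for all genes, and of -0.01 in PLC/PRF/5, beside 0.10. In Huh7, 4 of the 6 sat close to the limit, at 1.01 to 1.06, and CYP2C8 just below it, at 0.97. When each library was rescaled by its median ratio to the others, 3 genes remained at least 2-fold higher in Huh7 (CYP2B6, CYP2C19 and AHR), with a pseudocount of 5 there was 1, AHR, and with a pseudocount of 0.1 there were 8, CYP2C8 and CYP2C18 being added.

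**Figure D3:**
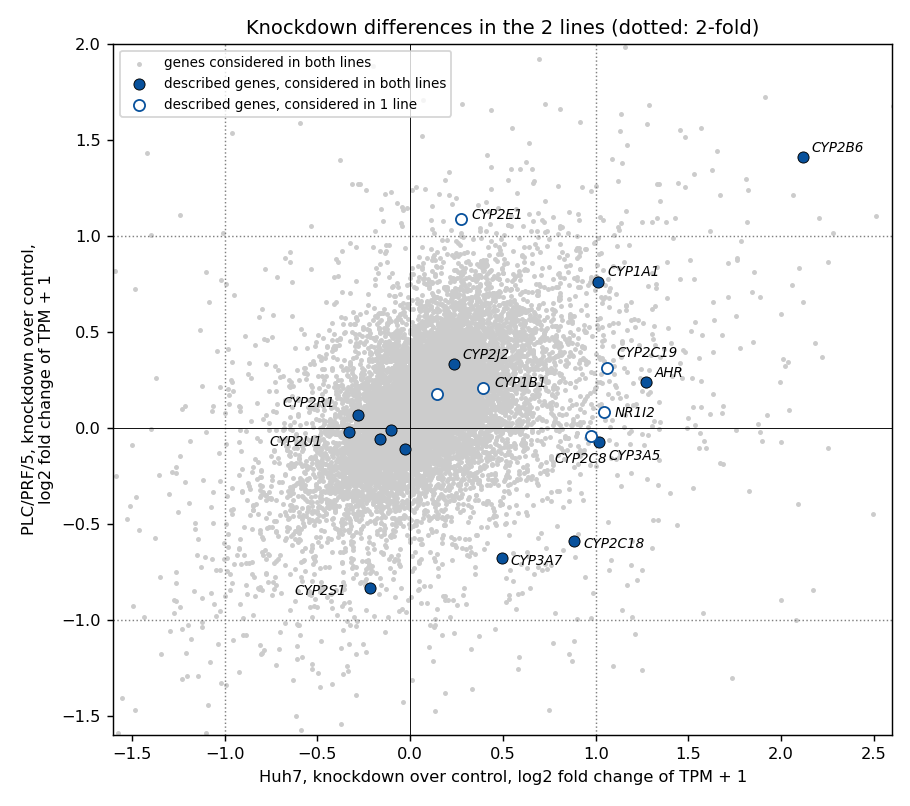
Log2 fold change of TPM + 1 in Huh7 (x) and PLC/PRF/5 (y) for all 12064 genes considered in both lines (grey, those inside the plotted range) and for the described genes (blue; open where only 1 line reached 1 TPM). CYP2B6 lies past 2-fold in both lines, a group from CYP2C8 to AHR lies near or past 2-fold in Huh7, and CYP2C18 and CYP3A7 lie below 0 in PLC/PRF/5; the unlabelled points near the centre are POR, AHRR, ARNT and RXRA.

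AHR, the ligand-activated receptor, had 67.7 TPM in control Huh7 cells and 165 TPM after knockdown, and in PLC/PRF/5 131 TPM without and 155 TPM with knockdown. The Huh7 control thus stood below the other 3 libraries. The log2 fold changes were 1.27 in Huh7 and 0.24 in PLC/PRF/5. ARNT, the partner AHR needs to bind DNA, differed little within a line: the Huh7 control had 27.2 TPM and its knockdown 25.3 TPM, and the PLC/PRF/5 control had 44.7 TPM and its knockdown 44.4 TPM. AHRR, the feedback repressor, was low in all 4 libraries, at 0.64 and 0.81 TPM in Huh7 and 0.79 and 1.02 TPM in PLC/PRF/5.

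CYP1A1, which oxidises polycyclic aromatic hydrocarbons and is the classic AHR target, had 68.2 TPM (control) and 139 TPM (knockdown) in Huh7, a ratio of 2.03. In PLC/PRF/5 it was at 48.3 and 82.6 TPM, a ratio of 1.71. Both knockdown libraries were above both control libraries, and the log2 fold changes were 1.01 and 0.76. The other family 1 genes were low. CYP1B1, an oestradiol hydroxylase found mainly outside the liver, gave 0.72 TPM in control and 1.26 TPM in knockdown Huh7 cells, then 0.11 and 0.28 TPM in the corresponding PLC/PRF/5 cells. CYP1A2, the neighbour of CYP1A1 on chromosome 15 with no coding gene between them, did not exceed 0.22 TPM in any library.

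The receptors of the CYP2 and CYP3 genes differed mostly by line. NR1I2, which encodes PXR, had 1.83 TPM (control) and 4.84 TPM (knockdown) in Huh7 (log2 fold change 1.05), with 0.02 TPM then 0.08 TPM for PLC/PRF/5. RXRA, the shared partner of PXR and CAR, measured 73.1 TPM in control Huh7 cells, 65.1 TPM after Huh7 knockdown, 12.6 TPM in control PLC/PRF/5 cells and 12.1 TPM after PLC/PRF/5 knockdown. Thus PXR RNA was found at a measurable level in Huh7 and hardly in PLC/PRF/5, and the arms of each line were alike for RXRA.

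CYP2B6, which metabolises bupropion and efavirenz and is induced through CAR and PXR, had 0.27 TPM (control) and 4.51 TPM (knockdown) in Huh7, against 0.66 and 3.41 TPM for the PLC/PRF/5 pair. Both controls were under 1 TPM and both knockdown libraries above 3 TPM. The log2 fold changes of TPM + 1 were 2.12 and 1.41, and with a pseudocount of 0.1 they were 3.64 and 2.21. RSEM shares reads among similar genes by a likelihood model, and 26.5% of the 31-base words of the CYP2B6 transcript occur in another listed gene, most of them in the pseudogene CYP2B7P. CYP2B7P itself was at 0.07 to 0.19 TPM in the 4 libraries.

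The CYP2C genes of chromosome 10 did not move alike. CYP2C19, which activates clopidogrel and clears omeprazole, gave 0.39 TPM in control and 1.90 TPM in knockdown Huh7 cells, then 0.25 and 0.55 TPM in the corresponding PLC/PRF/5 cells. CYP2C8, which oxidises paclitaxel, had 0.16 TPM (control) and 1.28 TPM (knockdown) in Huh7, and in PLC/PRF/5 cells 0.03 TPM without knockdown and 0 with it. CYP2C18 had 1.45 TPM (control) and 3.52 TPM (knockdown) in Huh7 but 6.77 TPM in control and 4.17 TPM in knockdown PLC/PRF/5 cells, higher in the knockdown library of one line (log2 fold change 0.88) and lower in that of the other (-0.59). Between 5.3% and 12.1% of the 31-base words of these 3 transcripts recur in other listed genes.

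The CYP3A genes of chromosome 7 were carried by CYP3A5 and CYP3A7 rather than CYP3A4. CYP3A5 had 8.57 TPM (control) and 18.4 TPM (knockdown) in Huh7 (log2 fold change 1.02), with 2.38 TPM then 2.21 TPM for PLC/PRF/5 (-0.07). CYP3A7, the form typical of fetal liver, had 5.88 TPM (control) and 8.68 TPM (knockdown) in Huh7 (0.49), with 1.27 TPM then 0.42 TPM for PLC/PRF/5 (-0.68). CYP3A4, whose promoter window is nearly that of CYP3A7, measured 0.07 TPM in control Huh7 cells, 0.18 TPM after Huh7 knockdown, 0.11 TPM in control PLC/PRF/5 cells and 0.03 TPM after PLC/PRF/5 knockdown. In transcript sequence CYP3A7 shared 18.2% of its words with other listed genes and CYP3A5 6.1%, so the split among these genes carries some uncertainty.

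Of the remaining family 2 genes, CYP2J2, CYP2R1 and CYP2U1 are known mainly for endogenous substrates and were within 2-fold between the arms of a line. CYP2J2, which makes epoxides of arachidonic acid, had 7.43 TPM (control) and 8.92 TPM (knockdown) in Huh7, against 12.9 and 16.4 TPM for the PLC/PRF/5 pair. CYP2R1, the vitamin D 25-hydroxylase, gave 10.6 TPM in control and 8.56 TPM in knockdown Huh7 cells, then 14.0 and 14.7 TPM in the corresponding PLC/PRF/5 cells. CYP2U1, a fatty acid hydroxylase, measured 1.05 TPM in control Huh7 cells, 0.63 TPM after Huh7 knockdown, 1.80 TPM in control PLC/PRF/5 cells and 1.76 TPM after PLC/PRF/5 knockdown. For all 3 the PLC/PRF/5 libraries lay above the Huh7 libraries, and no arm of a line was 2-fold from the other. CYP2S1, known from epithelia outside the liver, had 1.01 TPM (control) and 0.73 TPM (knockdown) in Huh7, against 77.9 and 43.2 TPM for the PLC/PRF/5 pair, where its log2 fold change was -0.84. It is the outermost of 6 described genes that lie close together on chromosome 19. In the same stretch CYP2A6, CYP2A7, CYP2A13 and CYP2F1 were listed at 0 and CYP2B6 was at most 4.51 TPM. CYP2E1, the ethanol-oxidising P450, gave 0.25 TPM in control and 0.51 TPM in knockdown Huh7 cells, then 0.11 and 1.36 TPM in the corresponding PLC/PRF/5 cells, above 1 TPM in 1 library.

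POR, the electron donor of all these enzymes, measured 143 TPM in control Huh7 cells, 140 TPM after Huh7 knockdown, 117 TPM in control PLC/PRF/5 cells and 108 TPM after PLC/PRF/5 knockdown. The arms were close in each line (log2 fold changes -0.03 and -0.11) although the P450 sum of Huh7 was 107 and 199 TPM. On the TPM scale POR stood above every P450 gene of the set in all 4 libraries, and in the Huh7 knockdown it was close to CYP1A1 (140 and 139 TPM).

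Taking both lines together, 0 of the 14 genes that entered the across-line fit passed as different in the knockdown in limma (adjusted p under 0.05; 0% of 13813 genes passed as higher and 0.00724% as lower). SCD, the knockdown target, did not pass either (mean log2 fold change -3.15, limma adjusted p = 0.128). Failing this test therefore does not show that a gene was unchanged. The fit needs 1 TPM in at least 2 libraries, treats cell line as a block and has 1 residual degree of freedom. Whether the cultures were independent experiments is not recorded, so its p-values measure how alike the lines moved. At an unadjusted p under 0.05, 3 of the 14 were higher (12.7% of all genes fitted) and 0 lower (5.24%): CYP1A1, CYP2B6 and AHR. CYP1A1 had a mean log2 fold change of 0.89 ± 0.11 (standard error) and an adjusted p = 0.129 in limma, higher in both lines. CYP2B6 had a mean of 1.76 ± 0.25 and an adjusted p = 0.130 in limma, also higher in both. It reached 1 TPM only in the 2 knockdown libraries, so it entered the fit through the arm where it was higher. Its direction, and its place among the 3, therefore carry little weight. AHR had a mean of 0.75 ± 0.25 and an adjusted p = 0.244, and its value in Huh7 exceeded that in PLC/PRF/5 by 1.03. Among the 13 genes at 1 TPM in each line's pair, both knockdown libraries were higher for 4 (46.5% of all genes) and lower for 5 (22.4% of all), and 4 had opposite signs. The filter set the sign in at least 1 line for CYP2B6, CYP2S1, CYP2U1 and CYP3A7. Of the 9 hepatocyte markers, 5 were lower at an unadjusted p under 0.05 and 0 passed the adjusted limma test. CYP2R1 in PLC/PRF/5 is counted as higher at 0.07 and became -0.07 with median-ratio scaling, which shifted the median of all genes by -0.09 in Huh7 and by -0.13 in PLC/PRF/5.

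Huh7 had more of the PXR and RXRA receptor RNA and of the CYP3A genes, and PLC/PRF/5 more CYP2S1, CYP2J2, CYP2R1 and ARNT. In the cell line term of the same fit, 6 of the 14 genes passed as higher in Huh7 (28.3% of all genes fitted) and 4 as higher in PLC/PRF/5 (31.5%), shares of the same order as for genes in general. The residual of this term is the disagreement of control and knockdown libraries about the line difference, and holds no replicate cultures. CYP2S1 had the widest gap, with a log2 difference of Huh7 minus PLC/PRF/5 of -4.98 (standard error 0.21, limma adjusted p = 0.000289). RXRA was higher in Huh7 by 2.39 (standard error 0.12, adjusted p = 0.000373 in limma). CYP3A7 and CYP3A5 were higher in Huh7 by 2.18 and 2.05 (limma adjusted p = 0.00495 and 0.00488), and NR1I2 by 1.95 (adjusted p = 0.00509). NR1I2 reached 1 TPM only in the Huh7 libraries (1.83 and 4.84 TPM). It thus entered the fit through the line where it was higher, which set its direction. CYP1A1 (0.61, adjusted p = 0.00798) and POR (0.33, adjusted p = 0.0271) were higher in Huh7 by less. CYP2J2 (-0.76, adjusted p = 0.0117), ARNT (-0.74, adjusted p = 0.00516) and CYP2R1 (-0.54, adjusted p = 0.0450) were higher in PLC/PRF/5. POR no longer passed without the variance trend, CYP1A1, CYP2R1 and POR no longer passed without the arm term, and 0 of the 10 passed without a TPM filter. For AHR (-0.43, adjusted p = 0.204), CYP2B6 (-0.03, adjusted p = 0.918), CYP2C18 (-0.93, adjusted p = 0.0943) and CYP2U1 (-0.60, adjusted p = 0.0567) the limma test was not passed.

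Neighbouring steps of the pathway were read from lists of related genes. In none of the 5 lists did a gene pass the across-line limma test, which SCD itself did not pass. The counts at an unadjusted p under 0.05 were of a few genes each. There, 2 of 9 AHR-related genes, 2 of 10 PXR and CAR targets, 3 of 16 liver factors, 4 of 16 electron transfer and haem genes and 0 of 12 other P450 genes were higher, beside 12.7% of all genes fitted. On the lower side were 1 PXR and CAR target and 2 liver factors, beside 5.24% of all genes fitted. Of the other AHR targets and the chaperones that hold AHR in the cytosol, 9 were considered in Huh7, where 0 were at least 2-fold higher or lower and the median log2 fold change was -0.11. By any amount, 2 of them were higher in the Huh7 knockdown and 7 lower. In PLC/PRF/5, 8 were considered, with 1 at least 2-fold higher and a median of -0.04. That gene, ALDH3A1, reached 1 TPM there only in the knockdown library, which set its direction. Whether CYP1A1 differed from the genes of this list was not tested. HSP90AB1, the chaperone of highest mean level over the libraries, had 1570 TPM (control) and 1379 TPM (knockdown) in Huh7, against 2058 and 2011 TPM for the PLC/PRF/5 pair. ALDH3A1, an aldehyde dehydrogenase, gave 1.55 TPM in control and 1.32 TPM in knockdown Huh7 cells, then 0.31 and 2.05 TPM in the corresponding PLC/PRF/5 cells. The 2 genes of this list that were higher at an unadjusted p under 0.05 were TIPARP (limma adjusted p = 0.193) and NFE2L2 (limma adjusted p = 0.147), and TIPARP, NFE2L2 and NQO1 were chosen after their values were seen. TIPARP measured 21.2 TPM in control Huh7 cells, 28.5 TPM after Huh7 knockdown, 21.1 TPM in control PLC/PRF/5 cells and 36.4 TPM after PLC/PRF/5 knockdown. NFE2L2, which encodes the oxidative stress factor NRF2, was at 243 and 349 TPM in the Huh7 pair and at 241 and 341 TPM in the PLC/PRF/5 pair. NQO1, a quinone reductase, was at 611 and 427 TPM and at 354 and 343 TPM.

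Other targets of PXR and CAR, mostly transporters and conjugating enzymes, split within the list. In Huh7, 3 of 10 were at least 2-fold higher (3.1% of all genes considered) and 1 lower (1.54%). The median was 0.39 (0.08 over all genes). In PLC/PRF/5, 1 of 6 was higher (1.72% of all genes considered) and 0 lower (1.11%). The median was -0.21 (0.10 over all genes). ABCC2, the canalicular export pump MRP2, was higher in the knockdown library of both lines, with 42.7 TPM against 110 TPM in Huh7 and 178 TPM against 406 TPM in PLC/PRF/5. ABCC3, the pump of the opposite cell face, had 6.05 TPM (control) and 21.0 TPM (knockdown) in Huh7, against 0.47 and 0.30 TPM for the PLC/PRF/5 pair. UGT1A1, the bilirubin glucuronosyltransferase, had 1.38 TPM (control) and 6.12 TPM (knockdown) in Huh7 but 88.5 TPM in control and 44.9 TPM in knockdown PLC/PRF/5 cells. GSTA1, a glutathione transferase, gave 16.5 TPM in control and 7.38 TPM in knockdown Huh7 cells, then 0.35 and 0 TPM in the corresponding PLC/PRF/5 cells. UGT1A and GSTA genes share sequence with their relatives, so their values are uncertain.

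Among 16 liver transcription factors and coregulators considered in each line, 0 in Huh7 were 2-fold apart (median 0.17) and 2 in PLC/PRF/5 were at least 2-fold lower (median 0.10). CEBPA, a factor of hepatocyte maturity, measured 444 TPM in control Huh7 cells, 350 TPM after Huh7 knockdown, 98.3 TPM in control PLC/PRF/5 cells and 48.4 TPM after PLC/PRF/5 knockdown. NR1H4, the bile acid receptor FXR, had 133 TPM (control) and 99.0 TPM (knockdown) in Huh7, against 5.68 and 0.44 TPM for the PLC/PRF/5 pair. In PLC/PRF/5 NR1H4 reached 1 TPM only in the control, which set its direction there. Of the 16 genes for electron transfer and haem supply, 0 in Huh7 were 2-fold apart (median 0.09) and 1 in PLC/PRF/5 was at least 2-fold higher (median 0.05). That gene was HMOX1, which degrades haem, with 153 TPM in control and 373 TPM in knockdown PLC/PRF/5 cells, and 27.7 and 44.4 TPM in the Huh7 pair. PGRMC1, a haem-binding partner of P450 enzymes and the gene of highest mean level in the list, gave 275 TPM in control and 261 TPM in knockdown Huh7 cells, then 181 and 171 TPM in the corresponding PLC/PRF/5 cells.

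P450 genes of other families served as a comparison. Of 24 listed, 11 were considered in Huh7 and 8 in PLC/PRF/5. In Huh7, 2 were at least 2-fold higher (3.1% of all genes considered) and 0 lower (1.54%). The median log2 fold change was 0.31 (0.08 over all genes). In PLC/PRF/5, 0 were higher (1.72% of all genes considered) and 1 lower (1.11%). The median there was 0.14 (0.10 over all genes). CYP4F3, a leukotriene hydroxylase, measured 12.2 TPM in control Huh7 cells, 30.4 TPM after Huh7 knockdown, 18.5 TPM in control PLC/PRF/5 cells and 21.2 TPM after PLC/PRF/5 knockdown. CYP24A1, which inactivates vitamin D, had 0.26 TPM (control) and 1.69 TPM (knockdown) in Huh7, against 72.3 and 30.0 TPM for the PLC/PRF/5 pair. In Huh7 CYP24A1 reached 1 TPM only in the knockdown library, which set its direction there. CYP51A1, the sterol demethylase and the most abundant of them, gave 408 TPM in control and 364 TPM in knockdown Huh7 cells, then 226 and 310 TPM in the corresponding PLC/PRF/5 cells. The median of the 12 xenobiotic P450 genes considered in Huh7 was 0.69 and that of the 10 in PLC/PRF/5 was 0.02, which became -0.09 with median-ratio scaling. In Huh7, CYP1B1, CYP2B6, CYP2C8 and CYP2C19 were considered through the knockdown library alone, and CYP2S1 and CYP2U1 through the control alone. In PLC/PRF/5 this held for CYP2B6 and CYP2E1 (knockdown) and CYP3A7 (control). The filter set the signs of these genes, so the medians carry little weight. The difference between the xenobiotic and the other P450 genes was not tested.

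**Figure D4:**
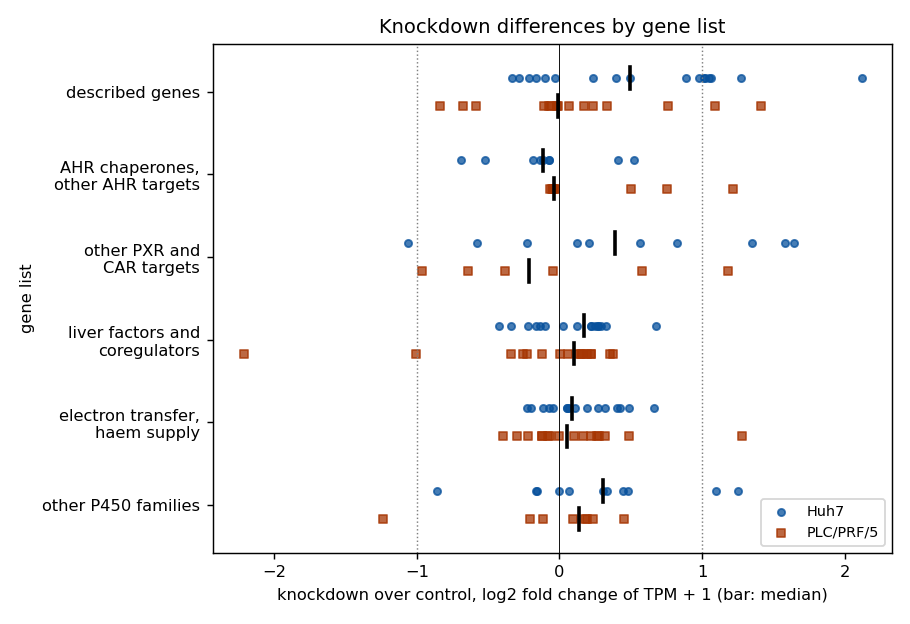
Log2 fold change of TPM + 1 of each gene considered, by list, with Huh7 as blue circles, PLC/PRF/5 as brown squares and the median as a black bar; dotted lines mark 2-fold. The described genes have medians of 0.49 (Huh7) and -0.01 (PLC/PRF/5), and most genes of the other lists lie between the dotted lines.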

How the data were processed

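RNA of 4 cultures was sequenced, 1 library per group, with groups taken from the sample titles. The authors deposited 1 table per library with TPM by gene symbol, rounded to 2 decimals. Per the submitters' processing notes, cutadapt, RSEM 1.2.21 and hg19 were used; how reads were aligned, to which annotation and whether by strand is not given in the sources used here. TPM sets each library to 1 total, so a few abundant transcripts move all other values, and no counting interval can be given.

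Log2 fold changes were taken of TPM + 1. Within a line, genes at 1 TPM or more in at least 1 library were counted at 2-fold, a size rule and not a test. Across lines, log2(TPM + 1) of 13813 genes with 1 TPM in at least 2 libraries was fitted with limma 3.58.1 in R 4.3.3 (terms for line and arm, variance trend, 1 residual and 3.71 prior degrees of freedom), two-sided, with Benjamini-Hochberg adjustment at 0.05 over all genes fitted. Same-line libraries were paired by the cell line term, since the labels name the line. The members and lists were chosen with earlier results of these data known. Named genes were all members and SCD, and of each list up to 4 genes at least 2-fold apart in a line plus the one of highest mean level; TIPARP, NFE2L2, NQO1 and the single cell type markers were named outside this rule, after their values were seen. Members under 1 TPM in every library are given by their range.

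Promoter windows came from RefSeq on GRCh38.p14 and shared 31-base words from GENCODE 29 transcripts, used for sequence only. Alternatives were a pseudocount of 0.1 or 5, filtering at 5 TPM or not at all, median-ratio scaling, no variance trend, and fits without the line or arm term.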

Additional observations from a re-analysis of the deposited data

Results flagged for a closer look

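Among the 13 genes at 1 TPM or more in a library of each line, the knockdown differences of 3 had opposite signs in the lines and were at least 1 apart on the log2 scale. With 1 library per group, the difference between the lines was not tested. CYP2C18 had a log2 fold change of 0.88 in Huh7 and -0.59 in PLC/PRF/5, a gap of 1.47. CYP3A7 had 0.49 and -0.68, a gap of 1.17. In PLC/PRF/5 CYP3A7 reached 1 TPM only in the control (1.27 TPM, against 0.42 TPM in the knockdown). Its sign there, and so its place among the 3, was set by the filter. CYP3A5 had 1.02 and -0.07, a gap of 1.09, in which the PLC/PRF/5 libraries themselves were close, at 2.38 and 2.21 TPM. The signs were the same with median-ratio scaling, at 0.82 and -0.71 for CYP2C18, 0.41 and -0.73 for CYP3A7, and 0.93 and -0.17 for CYP3A5.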

How the results depend on the processing

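No described gene past a threshold changed its direction under the alternatives run. The genes of the other lists were not followed through all of these alternatives. The number of genes at least 2-fold higher in Huh7, 6 as reported, was 8 with a pseudocount of 0.1, 1 with a pseudocount of 5, 3 with a TPM filter of 5 (9 genes considered) and 3 with median-ratio scaling. In PLC/PRF/5 the number higher, 2 as reported, was 0 with a pseudocount of 5 and 0 with a TPM filter of 5, and the number lower, 0 as reported, was 1 with a pseudocount of 0.1 (CYP3A7, log2 fold change -1.40). Without the cell line block, 0 genes passed for the knockdown, as with it. Over all alternatives the adjusted p in limma for the knockdown ranged from 0.101 to 1.0 for CYP1A1, from 0.116 to 1.0 for CYP2B6 and from 0.206 to 1.0 for AHR. Between the lines, 6 and 4 genes passed as reported, and without a TPM filter 0 and 0 did; that fit covers all 25343 listed genes, of which 5537 are at 0 in every library. CYP2U1 passed without the variance trend (adjusted p = 0.0313 in limma, range over its alternatives 0.0313 to 0.174). Leaving out a library leaves no residual degrees of freedom in the fit, and the values of each line stand in for it. The depth of the libraries is unknown, so levels under 1 TPM have no stated precision.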
